A study of Zea mays with 6 samples.

Results

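The maize LEAFY genes zfl1 (GRMZM2G098813) and zfl2 (GRMZM2G180190) are the subject here, taken by their identifiers as 2 of the 39305 genes of the deposited table. Both were present, and both passed the filter on low values described with the test. The libraries were made from young tassels, the male inflorescence of maize, of 2 to 4 mm length, grown in a greenhouse on B73 inbred plants. Each of the 3 wildtype libraries pooled 5 tassels. Each of the other 3 pooled 10 tassels of plants heterozygous for Bif1 and for Bif4, called Bif1;Bif4. These dominant Barren inflorescence mutations alter Aux/IAA proteins, repressors of auxin-dependent transcription, and tassels carrying them form fewer branches and spikelets. Pool size differed between the genotypes, so its part and that of the genotype cannot be told apart. The labels do not say whether pools of a genotype were grown separately, so p-values measure only the spread between these pools.

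LEAFY is a plant-specific transcription factor that gives flower identity to young lateral meristems. In Arabidopsis it switches on the floral MADS-box genes, among them APETALA1, the B-class and the C-class genes, and its own gene is activated by an auxin response factor, the class of protein that Aux/IAA repressors hold back. Maize kept a duplicate pair from an ancient genome doubling, and plants lacking both copies have abnormal flowers and altered inflorescence branching. The comparison asks how the transcripts of the copies stand in tassels with dominant Aux/IAA repressors.

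Both copies fell in Bif1;Bif4 tassels, by 1.80-fold for zfl1 and 2.27-fold for zfl2. In normalized read counts (reads divided by a factor for library size), zfl1 measured 701, 601 and 776 in wildtype replicates 1 to 3. The Bif1;Bif4 replicates 1 to 3 measured 387, 348 and 419. All Bif1;Bif4 values lay below all wildtype values, and the lowest wildtype value was 1.44 times the highest Bif1;Bif4 value. The means were 693 ± 87.5 and 384 ± 35.6 (SD, n = 3 in each genotype), so Bif1;Bif4 tassels held 55.5% of the wildtype level.

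The other copy, zfl2, measured 1166, 1104 and 1380.2 in wildtype replicates 1 to 3. In Bif1;Bif4 replicates 1 to 3 it measured 519, 474 and 616. The genotypes again did not overlap, with the lowest wildtype value 1.79 times the highest Bif1;Bif4 value. The means were 1217 ± 145 and 536 ± 72.9 (SD, n = 3 in each genotype), which leaves 44.1% of the wildtype level. Over all tested genes, 14.2% had every Bif1;Bif4 library below every wildtype library, and 12.6% had every one above.

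**Figure D1:**
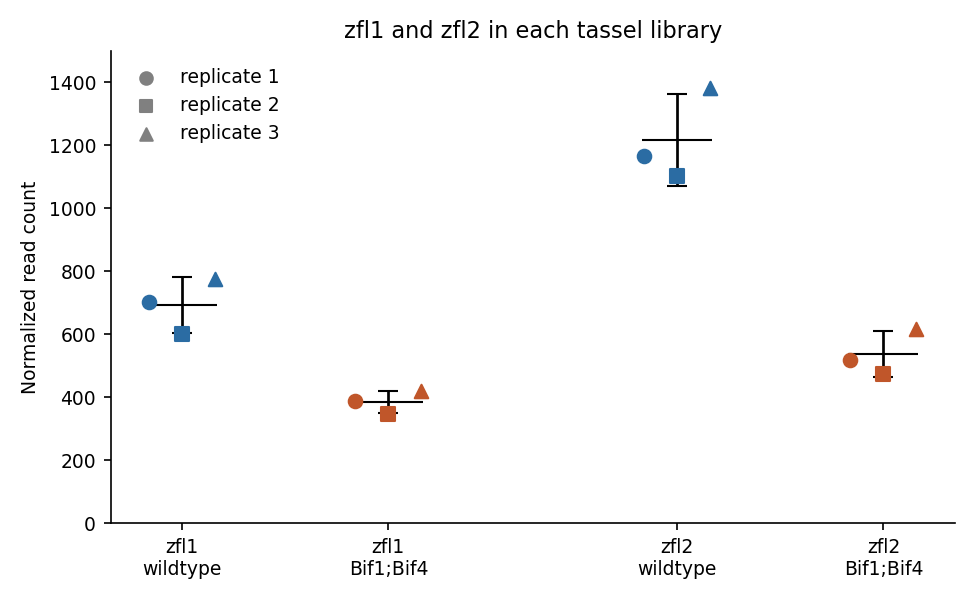
Normalized read count (vertical axis, from 0) of zfl1 and zfl2 in the 3 wildtype libraries (blue) and the 3 Bif1;Bif4 libraries (orange). Symbols mark the replicate number, horizontal bars the mean and whiskers the SD; for each copy every orange point lies below every blue point.

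The change was tested with limma on log2(normalized count + 1) over 21924 genes that reached 10 normalized counts in at least 3 libraries, with Benjamini-Hochberg adjustment. On this scale zfl1 fell by 0.84 (SE 0.12, 95% interval -1.12 to -0.57, limma adjusted p = 0.0084), which is 1.80-fold lower with an interval from 1.48 to 2.17. For zfl2 the fall was 1.18 (SE 0.12, 95% interval -1.46 to -0.90, limma adjusted p = 0.0021), or 2.27-fold with an interval from 1.87 to 2.76. Both were lower in all 3 Bif1;Bif4 libraries, and both passed an adjusted p of 0.05, as did 2.91% of tested genes in the downward direction and 2.13% in the upward direction. Among the 637 fallen genes, zfl2 ranked 64 and zfl1 ranked 157 by p-value, and 283 and 389 by size of fall. The median log2 fold change was -1.05 for the fallen genes and 0.01 for all tested genes, so zfl2 lay beyond the middle of the fallen genes and zfl1 short of it.

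The authors' deposited table gives log2 fold changes of -0.77 (SE 0.13) for zfl1 and -1.08 (SE 0.13) for zfl2, in the same direction and the same order. They come from a different model and are each smaller in size than the limma value. By adjusted p, zfl1 stands at place 276 and zfl2 at place 91 among the 22695 genes given one there. Of these genes, 4.83% were lower in Bif1;Bif4 at an adjusted p under 0.05. In wildtype tassels the pair was of middle to upper abundance, with zfl1 above 60.5% and zfl2 above 75.5% of tested genes in normalized counts, a scale that does not correct for gene length.

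**Figure D2:**
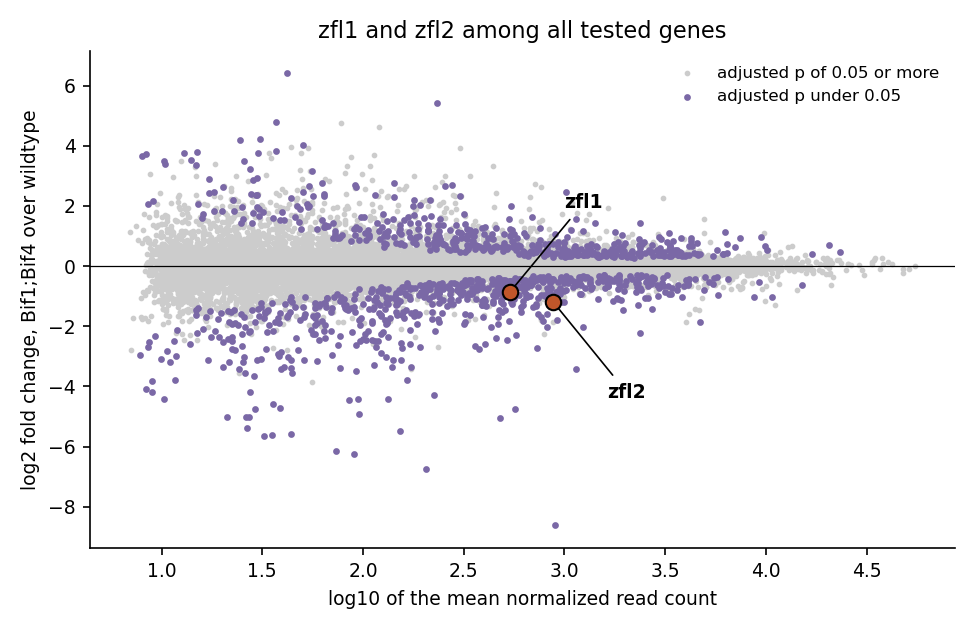
Log2 fold change of Bif1;Bif4 over wildtype (vertical axis) against log10 of the mean normalized read count (horizontal axis) for the 21924 tested genes, with genes under an adjusted p of 0.05 in purple. The fall of zfl1 by 0.84 and of zfl2 by 1.18 places both inside the purple cloud of moderate falls, far from the genes that were nearly lost.

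Reads assigned to genes came to 21047225 to 24636859 per library, read off from the step between normalized values. Of these, 637 to 752 reads per wildtype library and 350 to 428 per Bif1;Bif4 library fell on zfl1. For zfl2 the ranges were 1059 to 1338 and 477 to 630 reads. Counting error alone would give a coefficient of variation of 2.89% to 5.05%, and the replicates of a genotype varied by 9.26% to 13.6%, so the spread between pools was wider than counting error for each copy and genotype.

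The libraries of a genotype kept the same order for both copies. Replicate 2 was the lowest and replicate 3 the highest for zfl1 and zfl2 in wildtype and again in Bif1;Bif4. In wildtype replicate 2, zfl1 was 13.2% and zfl2 9.28% below the mean of its genotype. In Bif1;Bif4 replicate 3 they were 8.94% and 14.9% above it. The copies varied together, and their ratio varied by 5.02% within each genotype, less than either level did. Wildtype replicate 2 also stood apart over many genes, and without it 776 rather than 467 genes rose. Without that library zfl1 fell by 0.94 and zfl2 by 1.25 in log2 units (adjusted p = 0.0029 and 0.0017, limma).

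The duplicate copies were also taken as a sum, which does not depend on how counted reads were divided between them. Any reads left uncounted because they match both copies would be missing from it. The pair came to 1867, 1705 and 2156 in wildtype replicates 1 to 3. The sum was 906, 821 and 1035 in Bif1;Bif4 replicates 1 to 3. Bif1;Bif4 tassels thus held 48.2% of the wildtype sum, with no overlap. The difference in log2(sum + 1) was -1.05 (SE 0.14; exact two-sided permutation p = 0.1). That is the smallest p that 3 against 3 libraries allow, so this test cannot reach 0.05.

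Within the pair the zfl2 share was lower in Bif1;Bif4, by a difference that 3 against 3 libraries cannot bring under a p of 0.05. The zfl2 share of the reads of both copies was 62.4%, 64.7% and 64.0% in wildtype replicates 1 to 3. It was 57.3%, 57.7% and 59.5% in Bif1;Bif4 replicates 1 to 3. No Bif1;Bif4 share reached the lowest wildtype share. The mean shares were 63.7% ± 1.17 and 58.2% ± 1.20 (SD, n = 3 in each genotype), a difference of -5.56 percentage points (SE 0.97; exact two-sided permutation p = 0.1, the smallest possible).

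The 95% Wilson intervals of single libraries, which cover counting error only, ran from 60.1% to 66.9% over the wildtype libraries. Over the Bif1;Bif4 libraries they ran from 54.1% to 62.5%, so the intervals of some libraries of different genotypes overlapped. As a ratio, zfl2 was 1.76 ± 0.09 times zfl1 in wildtype and 1.39 ± 0.07 times in Bif1;Bif4 (SD, n = 3 in each genotype). On the log2 scale the difference between the falls of the copies was -0.34 (SE 0.06; exact two-sided permutation p = 0.1). How the counting treated reads that match both copies is not given, and its part in the share and in the sum was not tested.

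**Figure D3:**
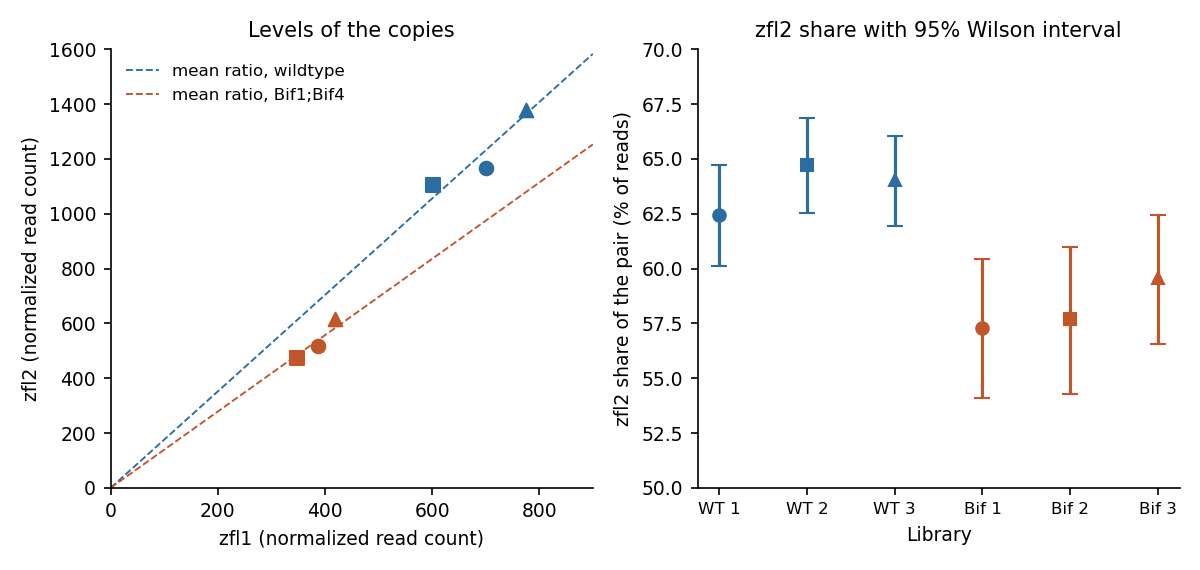
Left, zfl2 against zfl1 in normalized read counts for the 3 wildtype (blue, WT) and 3 Bif1;Bif4 (orange, Bif) libraries, with dashed lines at the mean ratios of 1.76 and 1.39. Right, the zfl2 share of the reads of both copies per library, on an axis from 50% to 70%, with 95% Wilson intervals; shares of 57.3% to 59.5% in Bif1;Bif4 lie below those of 62.4% to 64.7% in wildtype.

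A tassel is a mixture of tissues, and fewer cells of a type cannot be told apart from less RNA per cell in such bulk samples. The knotted1 homeobox gene kn1, active in meristems and stem, measured 9018, 8630.2 and 9258 in wildtype replicates 1 to 3. In Bif1;Bif4 replicates 1 to 3 it measured 7882, 6797 and 7064. Set against kn1, the pair stood at 213 ± 18.3 per 1000 kn1 counts in wildtype and 127 ± 16.8 in Bif1;Bif4 (SD, n = 3 in each genotype), or 60.0% of the wildtype ratio. Each Bif1;Bif4 ratio lay below each wildtype ratio, and the log2 ratio differed by -0.74 (exact two-sided permutation p = 0.1). The direction depended on the marker taken. Against the receptor gene fea2 the log2 ratio differed by -1.04 (exact permutation p = 0.1). Against the homeobox gene knox4 and the receptor gene TD1 it ran the other way, by 0.32 and 0.63 (exact permutation p = 0.3 and 0.2), since these markers had larger falls than the pair. All 4 comparisons were chosen after the data were seen.

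Of the 4 meristem markers described, which include kn1, 2 fell: knox4 and TD1, with log2 fold changes of -1.37 and -1.68, named after their values were seen. Over all tested genes 2.91% fell and 2.13% rose. The CLAVATA2-type receptor gene fea2 was at 763 ± 25.6 and 757 ± 35.1. The gene kn1 did not pass (log2 fold change -0.31, limma adjusted p = 0.073). The summed level of the 4, most of which was kn1, was 11109 to 11510.0 in wildtype and 7983 to 9311 in Bif1;Bif4. Leaf photosynthesis markers summed to 2346 to 2705 in wildtype and 2714 to 3110.1 in Bif1;Bif4, and 0 of 12 tested passed with limma, with 1 at an unadjusted p under 0.05. Of the 24 matched, 4 did not exceed the limit of a 0 in any library and 2 of these were at 0 throughout. Without psat1 and Pep1, whose symbols may name other genes, the leaf sums overlapped, at 863 to 1143 and 1061 to 1311. Of the 3 stamen and tapetum markers, ocl4 fell by 0.53, while ms8 and ms23 together reached at most 1.10 normalized counts in any library. The part of these markers' differences in the fall of the pair was not tested.

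Upstream in the Arabidopsis scheme stands an auxin response factor, of the class of DNA-binding partners of Aux/IAA proteins. Whether any maize member of this class acts on zfl1 or zfl2 was not tested. Of 21 matched to the list, 18 were tested, with a median log2 fold change of -0.03. Of these 3 rose, 1 fell and 14 did not pass, beside 2.13% risen and 2.91% fallen over all tested genes. The list members that rose were ARF23, ARF13 and ARF9, with log2 fold changes of 0.93, 0.70 and 0.60. ARF11 fell by 1.04. Without wildtype replicate 2 a further member rose, ARF3 (log2 fold change 1.08, limma adjusted p = 0.0034), which over all libraries had 0.80 (adjusted p = 0.15). ARF4 was at 3843 ± 240.0 and 3626 ± 222 normalized counts (log2 fold change -0.08, SE 0.08, limma adjusted p = 0.61). One member, arf1 (GRMZM2G395844), is of doubtful identity, as this symbol also names a different kind of gene. ARF9, ARF3, ARF4 and arf1 are named after their values were seen.

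Downstream in that scheme, the floral MADS genes did not share 1 direction. The APETALA1-type gene zap1 measured 2698, 2937 and 2426 in the wildtype libraries against 1771, 1701 and 1987 in the Bif1;Bif4 libraries. It fell by 0.56 (log2 scale, SE 0.09, limma adjusted p = 0.016), less than either LEAFY copy, with no overlap. The call was lost without wildtype replicate 1 or Bif1;Bif4 replicate 1 or 2 (adjusted p = 0.051, 0.066 and 0.067). The PISTILLATA-type B-class gene sts1 (also zmm16) measured 776, 627 and 790.2 in the wildtype libraries against 256, 244 and 258. It fell by 1.52 (SE 0.11, limma adjusted p = 5.4e-04), more than either copy. The differences between these falls and those of the pair were not tested.

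The SEPALLATA-type genes, partners of the other floral MADS proteins, had 2 of 4 tested fallen and 0 risen (all tested genes: 2.91% and 2.13%). Of these, zmm24 measured 558, 729 and 702 in the wildtype libraries against 248, 305 and 369.8, and it fell by 1.12 (SE 0.17, limma adjusted p = 0.010). At a lower level, zmm6 measured 38.5, 73.2 and 60.9 against 5.83, 4.97 and 13.7. It fell by 2.75 (SE 0.43, limma adjusted p = 0.012), and without wildtype replicate 3 it was not called (adjusted p = 0.055). The most abundant member, zmm31, did not pass with its log2 fold change of 1.06 (limma adjusted p = 0.082), and it rose without wildtype replicate 2 (adjusted p = 0.0083). It is named after its values were seen. The AGAMOUS-type C-class gene ZMM2 (GRMZM2G359952) rose by 1.67 and the SVP-type gene zmm19 by 1.44 while the LEAFY pair was lower. The call of zmm19 was lost without wildtype replicate 3 or any 1 Bif1;Bif4 library (adjusted p from 0.054 to 0.094), and with the replicate number as a block (0.071). The AP1-, B-class, C- and D-class and SVP-type lists had 1 tested member each, of 1, 3, 5 and 1 matched.

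Silky1, the APETALA3-type partner of sts1 and listed as si1, did not reach the filter, with a wildtype mean of 10.1 normalized counts. The other untested floral genes matched, ZAG1, zag2, zmm29, zmm27, ZAG5, bde1 and a further identifier pair under the symbol zmm2, were also below it.

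**Figure D4:**
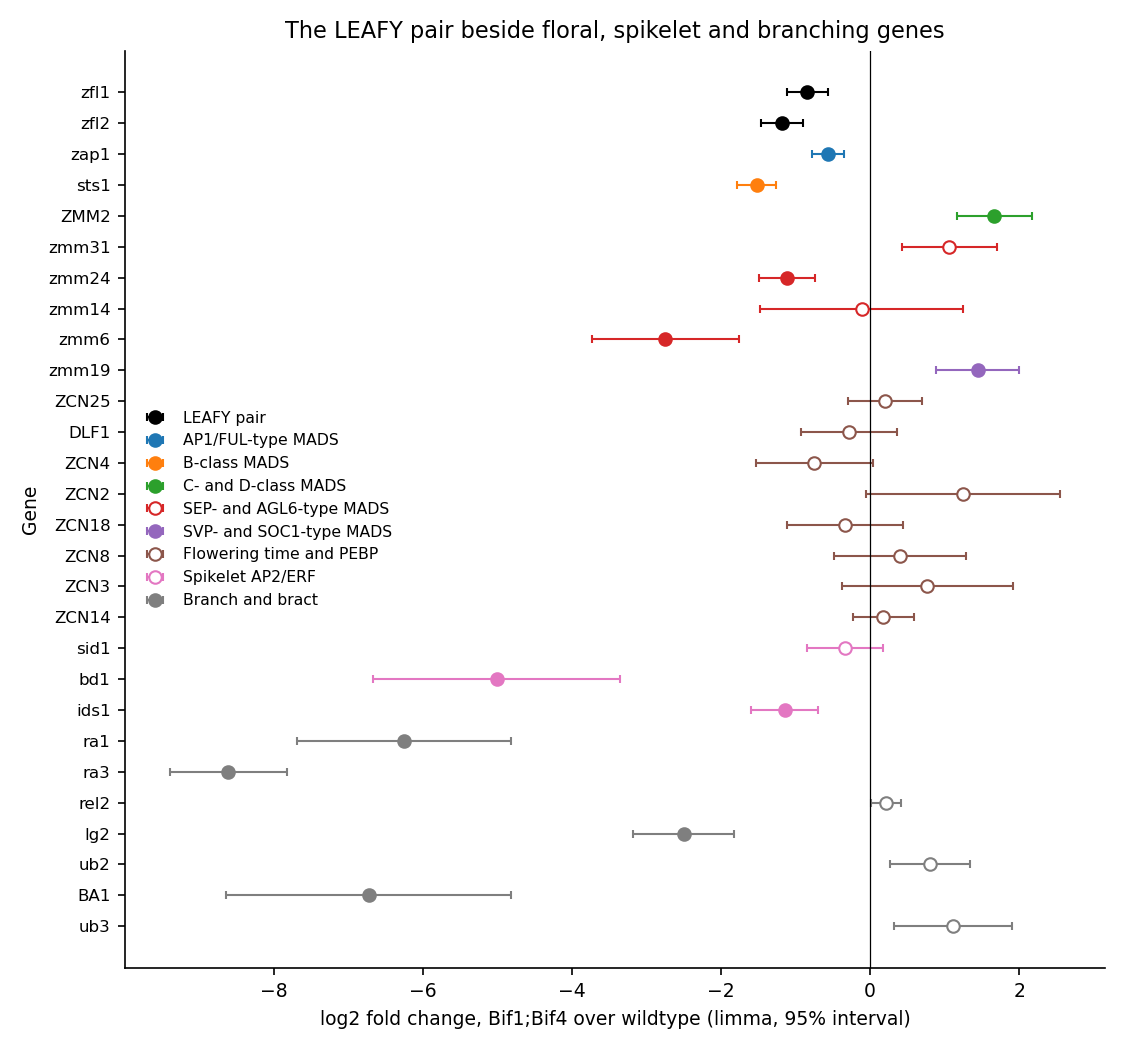
Log2 fold change of Bif1;Bif4 over wildtype (horizontal axis, limma) with 95% intervals for zfl1, zfl2 and the tested members of the floral, flowering time, spikelet and branching lists, coloured by list. Filled points passed an adjusted p of 0.05. The point of zfl1 at -0.84 lies near that of ZCN4, which did not pass, and zfl2 at -1.18 lies near zmm24 and ids1. Both copies are short of sts1, ra1, ra3 and BA1.

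Spikelet meristem genes act before and beside LEAFY as the spikelet turns to making flowers. Of 4 matched spikelet AP2/ERF genes 3 were tested and 2 fell, beside 2.91% of all tested genes. The AP2 gene ids1 (indeterminate spikelet1), which ends spikelet meristem growth, had means of 2394 ± 557 and 1071 ± 164 (SD, n = 3 in each genotype) and fell by 1.15 on the log2 scale. Its call was lost without wildtype replicate 3 or any 1 Bif1;Bif4 library (adjusted p from 0.052 to 0.077), and with the replicate number as a block (0.085). The ERF gene bd1, which marks spikelet meristems, also fell and was at 0, 0 and 0.98 in the Bif1;Bif4 libraries, under the limit of a 0. The related AP2 gene sid1 was at 258 ± 33.4 and 209 ± 68.8 and did not pass.

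The branch and bract list, like the other lists, was chosen with earlier results of these data known. Its count is therefore no test of an excess. Against 2.91% fallen and 2.13% risen over all tested genes, 4 of 7 branch and bract genes fell and 0 rose. These were ra3, ra1, lg2 and BA1, with log2 fold changes of -8.61, -6.26, -2.50 and -6.73, so each fell by a larger amount than zfl2. BA1 is named after its value was seen. The values of ra1, ra3 and BA1 in Bif1;Bif4 lie near the limit of a 0, at means of 1.95, 3.60 and 4.23, so the sizes of their falls are not resolved. The remaining members ub2, ub3 and rel2 did not pass, at log2 fold changes of 0.80, 1.11 and 0.21, and ub3 rose without wildtype replicate 2 (adjusted p = 0.032).

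Of the flowering time genes, which act before or beside LEAFY, 0 of 8 tested members passed with limma, and 0 had an unadjusted p under 0.05. Over all tested genes 2.91% fell and 2.13% rose. The bZIP gene DLF1 (delayed flowering1), the FD-type partner of florigen, was at 926 ± 261 and 755 ± 196 normalized counts. ZCN14, of the florigen family, was at 222 ± 33.8 and 253 ± 50.3. In Arabidopsis, TERMINAL FLOWER1 keeps LEAFY out of the shoot tip. Of its maize relatives, ZCN2 and ZCN4 had log2 fold changes of 1.25 and -0.75 (limma adjusted p = 0.26 for each), named after their values were seen. ZCN2 was at 3.66 in wildtype replicate 2, near the limit of a 0, and without that library its log2 fold change was 0.62. Another ZCN gene, ZCN3, had 0.77 over all libraries (limma adjusted p = 0.44) and 1.25 without wildtype replicate 2 (limma adjusted p = 0.13). Of 19 matched members, 10 did not exceed the limit of a 0 in any library.

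Over the 6 libraries the pattern of one copy was close to that of the other, with Pearson r = 0.992 on log2(count + 1). Among 18544 other genes with a mean of at least 50 normalized counts, zfl2 ranked 7 in likeness to zfl1 and zfl1 ranked 6 in likeness to zfl2. The likeness rests largely on the difference between genotypes that these genes share, and 211 genes for zfl1 and 247 for zfl2 reached an r of 0.95. Among the genes with a symbol, those most like zfl1 were the WUSCHEL-related homeobox gene wox9C (r = 0.991), baf1 (0.985), GPDH5 (0.982), sts1 (0.982) and the protein disulfide isomerase gene pdi8 (0.979).

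Those most like zfl2 were baf1 (r = 0.993), GLK47 (0.991), the TCP gene BAD1 (0.990), GPDH5 (0.989) and SR45_1 (0.985). Thus baf1 (barren stalk fastigiate1), an AT-hook gene of axillary meristem formation, and GPDH5 were named for both copies. The level of wox9C was 203, 145 and 216 in wildtype replicates 1 to 3 and 69.0, 51.6 and 89.0 in Bif1;Bif4 replicates 1 to 3. GLK47 was at 1299 ± 70.9 and 545 ± 64.0 (SD, n = 3 in each genotype), close to the levels and the fall of zfl2, with a log2 fold change of -1.26. For SR45_1 the log2 fold change of -0.28 was not past the threshold (limma adjusted p = 0.072). The calls of wox9C, GPDH5 and pdi8 were lost when some single libraries were left out, with adjusted p up to 0.071, 0.11 and 0.15. GPDH5 and pdi8 were also lost with the replicate number as a block (0.086 and 0.051), and pdi8 with median-centring (0.053).

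**Figure D5:**
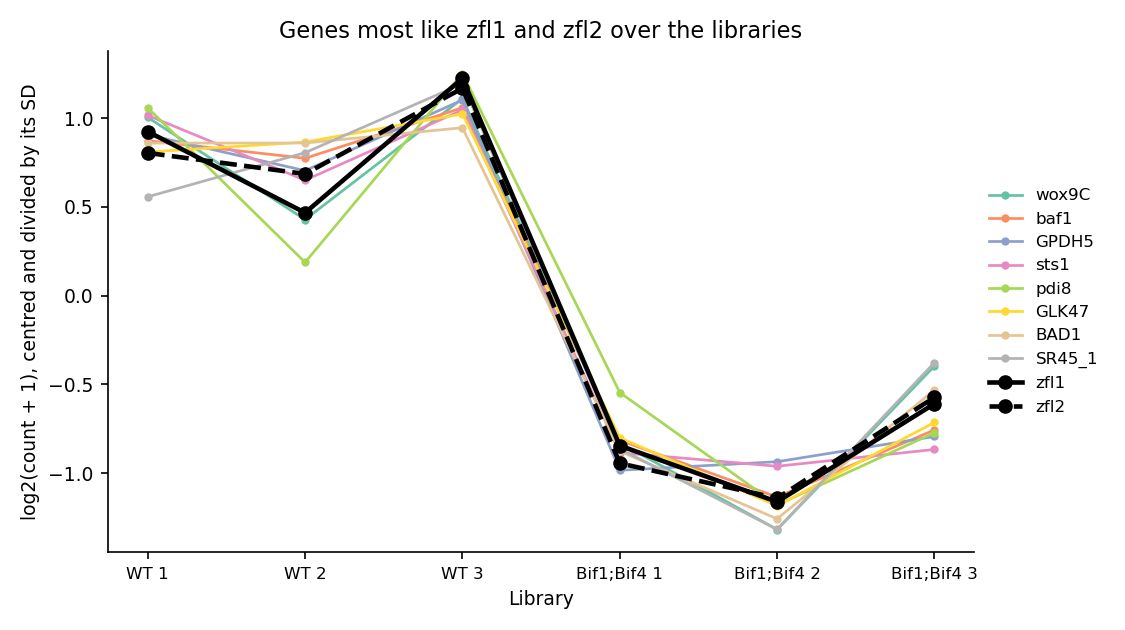
Log2(count + 1) of zfl1, zfl2 (black) and the 8 genes named for likeness to them, each centred and divided by its own SD (vertical axis), in the 3 wildtype (WT) and 3 Bif1;Bif4 libraries. Lines join the libraries only for the eye. All genes shown are high in wildtype and low in Bif1;Bif4, and r with the copy they were named for runs from 0.979 to 0.993. Division by the SD hides the size of each fall, which differs widely between these genes.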

How the data were processed

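The submitters' processing notes name HTSeq, TopHat2 2.1.1, DESeq2 and Trimmomatic. The order of use, genome build, annotation and strand setting were not given in the sources used here. The deposited signal values are reads per gene, scaled by the authors with 1 size factor for each library. The deposited table also gives the authors' mean, log2 fold change with its SE, Wald score and p-value. Within each library, 100% of values were multiples of 1 step (within 1e-06 reads), which gave the reads assigned to genes. No count-based test was run on them, since the step of Bif1;Bif4 replicate 2 is so near 1 that an automatic check could not tell it from rounding. A value of 0 allows up to 3 reads, or 2.75 to 3.30 normalized counts, for counting error only.

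Genes were tested with limma 3.58.1 (R 4.3.3; trend and robust options) on log2(value + 1), two-sided, where a gene had at least 10 in at least 3 libraries; tested genes held 99.9% of the summed values. The fit was tested on 3 simulated data sets, each with 200 changed genes of a mean of at least 300. It recovered 100% of the 2-fold and of the 4-fold changes, and 6.83% of its calls were false at an adjusted p under 0.05. Recovery of changes in genes below that mean was not tested. Single values were compared by exact permutation with SciPy 1.17.1 (Python 3.11.15). Gene names came from RefSeq genes of Zm-B73-REFERENCE-NAM-5.0, which matched exactly 1 gene for 18476 identifiers; the name zfl2 came with the identifier that defines it. Named were zfl1 and zfl2, up to 3 called members per list by adjusted p or the 2 most abundant where none was called, and 5 genes most like each copy. The members and lists were chosen with earlier results of these data known. Same-numbered libraries of the genotypes deviated with correlations of 0.07, -0.17 and -0.03 across genes, so the numbers were not taken as pairs. A result for 1 further gene is not reported here.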

Additional observations from a re-analysis of the deposited data

How the results depend on the processing

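Both copies kept their fall and stayed past an adjusted p of 0.05 in every alternative fitted, namely median-centring, pseudocounts of 0.5 and 5, no minimum, a minimum of 50, the replicate block and each library left out. Leaving out a library gave log2 fold changes from -0.94 to -0.76 for zfl1 (adjusted p 0.0029 to 0.040) and from -1.29 to -1.09 for zfl2 (0.0017 to 0.019). The counts over all genes depended on the libraries, at 167 to 776 risen and 282 to 627 fallen genes with a library left out, when fewer libraries were fitted. Under the replicate block 381 genes rose and 429 fell, and zfl1 had -0.84 (limma adjusted p = 0.0078) and zfl2 -1.18 (0.0021). In this balanced design the block cannot change the size of a difference, only its SE and p-value. For the same reason the 3 within-number differences repeat the main means, -1.05 for the log2 sum of the pair and -5.56 points for the zfl2 share. Their SE was 0.0043 for the log2 sum, against 0.14 with the numbers ignored, so same-numbered libraries lay close together in this sum. For the share the SE was 0.77 points, against 0.97. With 3 paired differences no exact p can be under 0.25. The samples share only a number, and not every library correlated best with its own number. Over libraries left out, the log2 sum changed by -1.14 to -0.96 and the share by -6.24 to -5.06 points; 3 against 2 libraries allow no exact p under 0.2. Of 20 other named genes past the test, all 20 kept their sign and 13 stayed past it in every alternative that gave a value. The calls of zap1, zmm6, zmm19, ids1, wox9C, GPDH5 and pdi8 were lost when some single libraries were left out, with adjusted p up to 0.067, 0.055, 0.094, 0.077, 0.071, 0.11 and 0.15. The replicate block also ended the calls of zmm19, ids1, GPDH5 and pdi8 (0.071, 0.085, 0.086 and 0.051), and median-centring that of pdi8 (0.053). Relative to knox4 and TD1 the log2 sum of the pair reversed, at 0.32 and 0.63, and relative to kn1 and fea2 it kept its sign, at -0.74 and -1.04; these comparisons were chosen after seeing the data. The planned count-based tests were not run.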
